A study of Arabidopsis thaliana with 2 samples.

Results

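The 10 genes described here encode the Arabidopsis thaliana machinery that removes 5-methylcytosine from DNA. They are the DNA glycosylases ROS1 (AT2G36490), DME (AT5G04560), DML2 (AT3G10010) and DML3 (AT4G34060), the targeting factors IDM1 (AT3G14980), IDM2 (AT1G54840) and MBD7 (AT5G59800), and the end-processing and ligation enzymes ZDP (AT3G14890), APE1L (AT3G48425) and LIG1 (AT1G08130). The genes were chosen by their known role, with earlier results of these data known. Every differentially methylated region that shares a base with one of them or lies within 1 kb was taken. That gave 64 of 83934 regions in 6 deposited tables, 28 in the comparison of ddb2-3 with Col and 36 in that of cen with Col.

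Active demethylation works as base excision repair. A glycosylase of the DME family cuts out the methylated base and nicks the strand, ZDP or APE1L cleans the blocked end, and a polymerase and LIG1 restore the strand with an unmethylated cytosine. IDM1 is a histone acetyltransferase, IDM2 an alpha-crystallin domain protein and MBD7 a methyl-CpG-binding protein, and they help direct ROS1 to its targets. ROS1 is the main demethylase of vegetative tissue, and DME is best known for demethylating the maternal genome before fertilisation. ROS1 expression itself responds to DNA methylation near its promoter. CG methylation inside the transcribed part of genes is common in Arabidopsis, and dense methylation in all contexts is typical of transposons.

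Per the labels, genomic DNA came from seedlings grown in vitro for 10 days, with 1 library of Col wild type (WT) and 1 of ddb2-3, a line with the insertion DsLoxHs195_05H. DDB2 recognises DNA damage in global genome repair. The deposited tables also compare Col with a line called cen, which the labels used here do not describe, so its genotype and growth are not given. Both comparisons appear to share the Col library. Col and ddb2-3 stand on 1 library each, and the number of libraries of cen is not given. No test across plants was thus possible, and no p-value is given. Each table row gives a position (TAIR10) and a difference in methylation level, and the numbers of reads are unknown. "Higher" (a gain) and "lower" (a loss) mean that the line lay above or below Col. This direction was inferred from the data and would be exchanged throughout if the inference were wrong. The inference rests on CG regions. In the other contexts few regions bore on it, and the direction was taken over from CG. The sequences of these regions and the strand of the genes were not used here, so a flank is named by its low- or high-coordinate side, and promoter, exon and UTR are not told apart.

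The changes lay almost wholly in CG methylation inside the genes. The ddb2-3 table held 28 CG regions at the genes, 15 higher and 13 lower, and no CHG or CHH region (H is any base but G). The cen table held 35 CG regions, 20 higher and 15 lower, 1 CHG region, which was lower, and no CHH region. Only MBD7 was without a CG region in ddb2-3, which left 9 of the 10 genes with one. In cen MBD7 and ZDP were without, which left 8. Among all 27444 nuclear protein-coding genes, 57.7% had a CG region in the ddb2-3 table and 60.1% in the cen table, counted with the same 1 kb flanks. Among the 17424 genes within the range of lengths of the 10, from 1.67 to 9.42 kb, these shares were 68.7% and 71.0%. That range is not a length match, as most of its genes are shorter than most of the 10. In the ddb2-3 table the share was 47.8% at 1500 to 2000 bp and 96.8% at 9000 to 9500 bp. In the cen table it was 50.1% and 96.8%. The shares over the whole range thus do not show that the 10 genes stand apart. CHG regions lay at 5.04% of all protein-coding genes in the ddb2-3 table and 6.19% in the cen table, and CHH regions at 7.66% and 7.33%. At such shares, counts of 0 or 1 among 10 genes do not stand apart from the background.

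Counted with the 1 kb flanks, higher and lower regions stood at the same gene for 6 members in ddb2-3 and for 5 in cen. A higher CG region was found at 8 of the 10 genes in ddb2-3 and at 7 in cen, beside 48.5% and 55.7% of genes of this length range. A lower one was found at 7 genes in ddb2-3 and 6 in cen, beside 52.9% and 49.9%. The genes with both were ROS1, DME, IDM1, APE1L and LIG1 in each table, and IDM2 in ddb2-3. At IDM2 the higher region lay in the flank, 93 bp outside the gene. Of all genes of this length range, 32.6% had both in the ddb2-3 table and 34.7% in the cen table. These shares are not matched for length either, so they do not set the 10 genes apart.

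**Figure D1:**
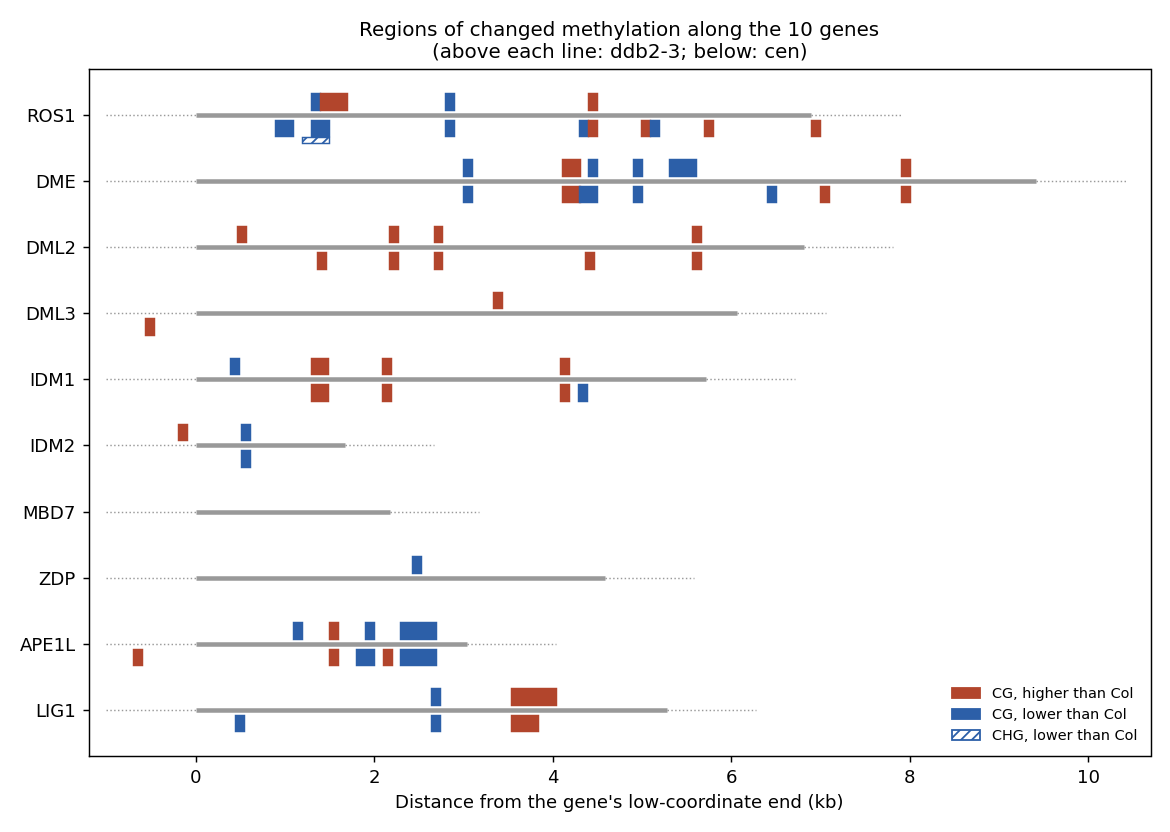
Regions of changed methylation along the 10 genes. The horizontal axis is the distance in kb from the gene's low-coordinate end, grey bars are gene spans, dotted lines are the flanks of 1 kb, and boxes above and below each bar are regions of the ddb2-3 and cen tables. Red boxes are higher and blue boxes lower than Col in CG, and the thin hatched box under ROS1 is the only CHG region. Most boxes lie inside the spans, DML2 has only red boxes and MBD7 has none.

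Most regions were a single window of 100 bp inside a gene, as CG regions mostly were in these tables. Of the 28 CG regions of ddb2-3, 22 were a single window, beside 82.5% of all nuclear CG regions, and the longest, in LIG1, was 500 bp. In cen, 27 of 35 were a single window, beside 81.3%, and the longest, in APE1L, was 400 bp. By midpoint, 27 of 28 regions in ddb2-3 and 32 of 35 in cen lay in the gene and not in its flanks, where the genes make up 72.1% of the space. For all genes of this length range, 77.8% and 77.7% of such regions lay in the gene, where the genes make up 60.5% of the space. In the outermost 10% of the span at either end lay 2 of the 27 in-gene regions of ddb2-3 (DML2 and IDM1) and 1 of the 32 of cen (LIG1), beside 6.78% and 6.55% for all such genes. The absolute difference at the 10 genes had a median of 0.281 in ddb2-3 (0.128 to 0.625) and 0.255 in cen (0.139 to 0.644), beside 0.232 over all nuclear CG regions in each table.

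**Figure D2:**
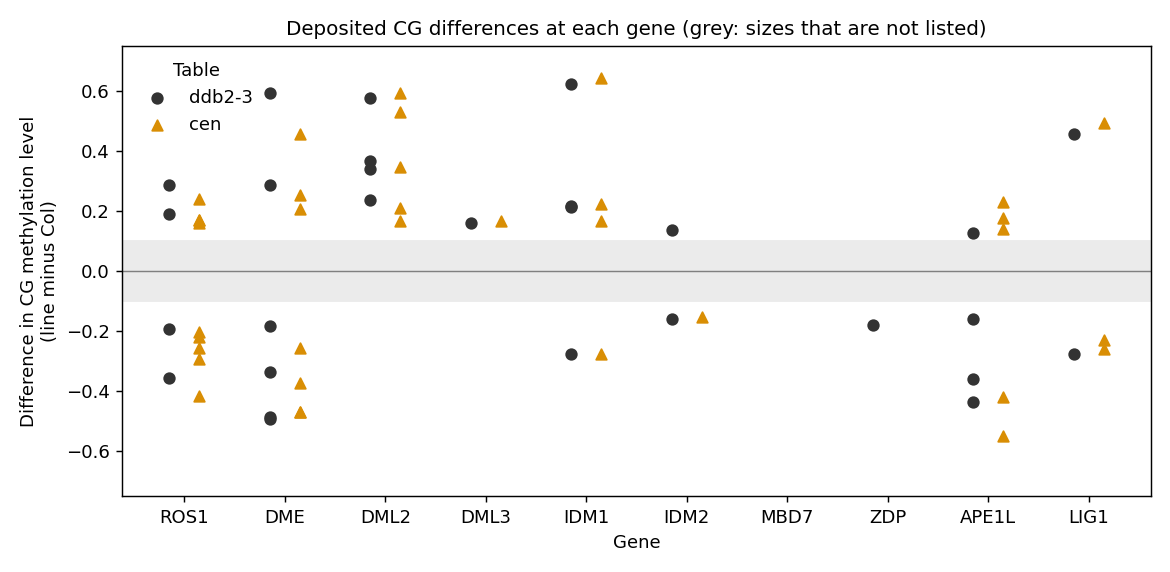
Difference in CG methylation level (line minus Col) of every CG region at each of the 10 genes, with circles for ddb2-3 and triangles for cen. Each point is 1 region, and the grey band from -0.1 to 0.1 marks sizes that the tables do not list. IDM1 holds the highest point of each table, at 0.625 and 0.644, and APE1L the lowest of cen, at -0.548.

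ROS1, on chromosome 2, differed most between the tables in the number of its regions. The gene is 6.9 kb long and had 4 CG regions in ddb2-3 and 9 in cen. Of 415 genes within 10% of its length, 54.2% had at least 4 in the ddb2-3 table and 3.86% at least 9 in the cen table, where the median was 4. This contrast was seen after the counts were known, and the difference between the lines was not tested.

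Toward its low-coordinate end, ROS1 held a cluster in which adjoining regions of ddb2-3 went opposite ways, while the CG regions of cen were lower. Adjoining regions of 1 direction had been joined in these tables, so an adjoining pair can only be opposite. In the authors' deposited table for ddb2-3, 15309201 to 15309300 was lower by 0.358 and the adjoining 15309301 to 15309600 was higher by 0.288. Since a level lies between 0 and 1, Col was methylated in CG at 0.358 or more in the first stretch and at 0.712 or less in the second. For cen, the authors' deposited table gave 15308801 to 15309000 as lower by 0.416 and 15309201 to 15309400 as lower by 0.219. The window 15309301 to 15309400 thus falls in a higher region of ddb2-3 and in a lower region of cen. The same stretch carried the only non-CG region at any of the 10 genes. The authors' deposited CHG table for cen had 15309101 to 15309400, at 19.5% of the span from the low-coordinate end, lower by 0.139. That size was near the lower end of the list, as 82.8% of nuclear CHG regions of cen were at least as large. In cen 89.8% of nuclear CHG regions were higher, and this one was lower.

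Further along, ROS1 held both higher and lower regions. At 15310701 to 15310800, 41.2% along the span, the authors' deposited tables gave a level lower by 0.194 in ddb2-3 and by 0.203 in cen. At 15312301 to 15312400, 64.4% along, they gave a level higher by 0.190 in ddb2-3 and by 0.169 in cen. The remaining regions stood in the cen table alone. This does not show that ddb2-3 equalled Col there, since differences under 0.1 are not listed. The coverage and test needed for listing are unknown, so a larger difference could also be unlisted. The authors' deposited table for cen had 15312201 to 15312300 lower by 0.294, 15312901 to 15313000 higher by 0.161 and the adjoining 15313001 to 15313100 lower by 0.257. It also had 15313601 to 15313700 higher by 0.242, and 15314801 to 15314900, which crosses the high-coordinate end of the gene with 7 of its bases inside, higher by 0.169. ROS1 thus had 2 higher and 2 lower CG regions in ddb2-3 and 4 higher and 5 lower in cen.

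DME, on chromosome 5 and 9.42 kb long, carried wide differences in both directions in each table. In ddb2-3 it had 4 lower and 2 higher CG regions, and in cen 4 lower and 3 higher. Of 123 genes within 10% of its length, 50.4% had at least 6 CG regions in the ddb2-3 table and 39.0% at least 7 in the cen table. The widest difference in ddb2-3 was a gain at 1313201 to 1313400, higher in the authors' deposited tables by 0.594 in ddb2-3 and by 0.457 in cen. At that place the level of Col was 0.406 or less. Only 2.38% of nuclear CG regions of ddb2-3 had a difference of this size or more. Losses flanked it on both sides. At 1312101 to 1312200 the authors' deposited tables gave a level lower by 0.485 in ddb2-3 and by 0.468 in cen. At 1314001 to 1314100 they gave a level lower by 0.494 in ddb2-3 and by 0.372 in cen. Just beyond the gain, the authors' deposited tables had 1313501 to 1313600 lower by 0.182 in ddb2-3 and the adjoining 1313401 to 1313600 lower by 0.256 in cen.

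The rest of DME held regions of 1 table each, apart from 1317001 to 1317100. That window, 84.4% along the span, was higher in the authors' deposited tables by 0.286 in ddb2-3 and by 0.255 in cen. The authors' deposited table for ddb2-3 alone had 1314401 to 1314700, lower by 0.337. The table for cen alone had 1315501 to 1315600, lower by 0.470, and 1316101 to 1316200, higher by 0.206, in the authors' deposited values. The first of all these regions had its midpoint 32.4% along the span, and neither flank held a region of either table.

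DML2, on chromosome 3, was the one gene with several regions that were all higher in each table. It had 4 CG regions in ddb2-3 and 5 in cen, every one a window of 100 bp inside the gene of 6.82 kb. Of genes of this length range, 1143 had exactly 4 CG regions in the ddb2-3 table, and in 2.71% of them all were higher. Exactly 5 were found in 667 genes for cen, and in 1.50% of them all were higher. Genes with all regions in 1 direction, higher or lower, made up 8.4% of the former and 2.25% of the latter. The pattern was known before these shares were computed, and it was not tested. Some of the windows are the same in both tables, which appear to share Col, so the shares of the 2 tables are not independent. At 3084401 to 3084500, 39.9% along the span, the authors' deposited tables gave a level higher by 0.577 in ddb2-3 and by 0.592 in cen, so Col lay at 0.408 or less. At 3083901 to 3084000 they gave a level higher by 0.340 in ddb2-3 and by 0.530 in cen. At 3087301 to 3087400 they gave 0.238 and 0.211. The authors' deposited table for ddb2-3 alone had 3082201 to 3082300, higher by 0.366, and that for cen alone had 3083101 to 3083200 and 3086101 to 3086200, higher by 0.348 and 0.168.

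Beyond the 1 kb flank, DML2 had non-CG regions on its low-coordinate side, which were looked for after the counts were seen. In the authors' deposited tables for ddb2-3, a CHG region at 3080601 to 3080700, 1035 bp from the gene, was lower by 0.184, and a CHH region at 3080201 to 3080300 was higher by 0.136. The authors' deposited table for cen had a CHH region at 3080501 to 3080600, higher by 0.121. No other of the 10 genes had a CHG or CHH region outside the gene within 2 kb.

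DML3, on chromosome 4, stood at the other extreme among the glycosylase genes, with 1 CG region in each table. Of 632 genes within 10% of its length of 6.06 kb, 93.4% had at least 1 CG region in the ddb2-3 table and 94.6% in the cen table. The medians were 3 and 4, and the 25th percentile was 2 in each table. In the authors' deposited table for ddb2-3 the region lay in the gene, at 16316701 to 16316800, and was higher by 0.162. In that of cen it lay 466 bp outside the gene on the low-coordinate side, at 16312801 to 16312900, and was higher by 0.168 in the authors' deposited table. Both differences were in the smaller part of their tables, as 76.7% and 73.9% of nuclear CG regions were at least as large.

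**Figure D3:**
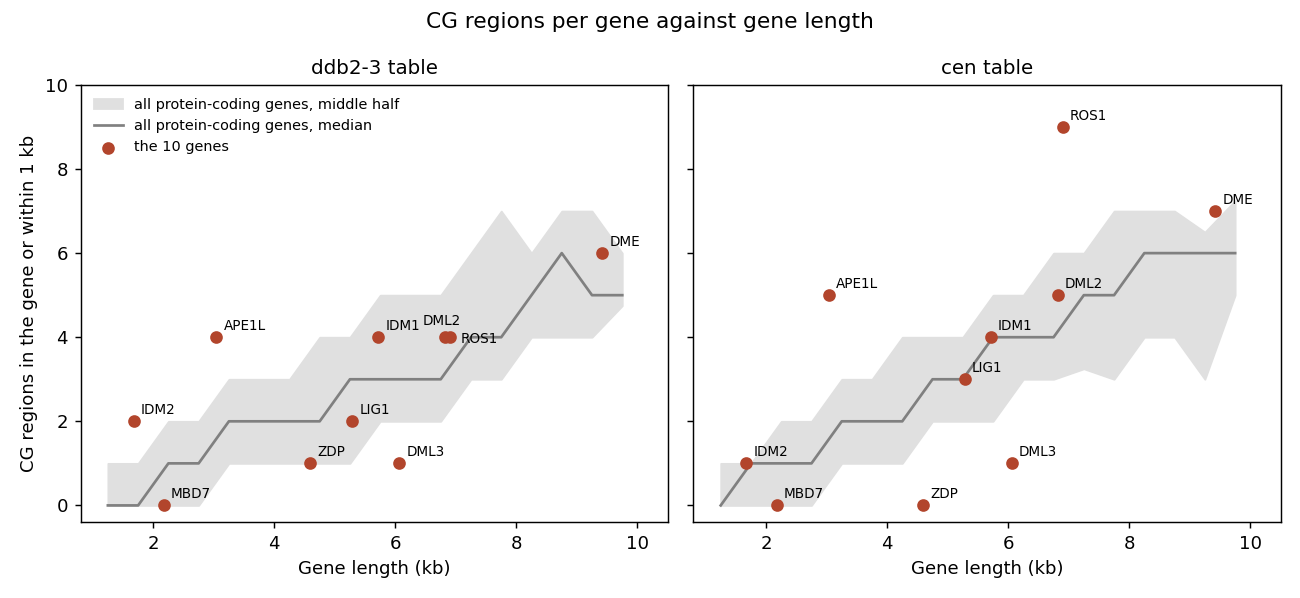
Number of CG regions in a gene or within 1 kb (vertical axis) against gene length in kb (horizontal axis), for ddb2-3 at left and cen at right. The grey line and band are the median and the 25th to 75th percentile of all nuclear protein-coding genes in steps of 0.5 kb, and red points are the 10 genes. ROS1 lies at 4 in ddb2-3 and at 9 in cen, APE1L lies above the band and DML3 below it in both panels.

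Among the targeting factors, IDM1, on chromosome 3 and annotated in the gene table as ROS4, held the widest gain of the 10 genes. At 5041101 to 5041300, 24.3% along its span of 5.71 kb, the authors' deposited tables gave a CG level higher by 0.625 in ddb2-3 and by 0.644 in cen. Col was thus methylated there at 0.356 or less, ddb2-3 at 0.625 or more and cen at 0.644 or more. Differences of this size or more made up 1.89% of nuclear CG regions of ddb2-3 and 1.76% of those of cen. Smaller gains followed at 5041901 to 5042000, by 0.217 in ddb2-3 and 0.166 in cen, and at 5043901 to 5044000, by 0.212 and 0.224, in the authors' deposited tables. Each table had 1 loss, at different places in the gene. The authors' deposited tables placed it at 5040201 to 5040300 in ddb2-3 and at 5044101 to 5044200 in cen, and its size was 0.276 in each. The small gene AT3G14981, which the gene table places within the span of IDM1, held none of these regions.

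IDM2 had regions in each table and MBD7 had none. Of 3132 genes within 10% of the length of IDM2, 19.4% had at least 2 CG regions in the ddb2-3 table, as IDM2 did, and 49.1% at least 1 in the cen table, as IDM2 did. In IDM2, on chromosome 1 and 1.67 kb long, 20453101 to 20453200 was lower by 0.159 in ddb2-3 and by 0.152 in cen in the authors' deposited tables. A further region in the authors' deposited table for ddb2-3, at 20452401 to 20452500, was higher by 0.138. It lay 93 bp outside IDM2 and within the neighbouring gene NF-YC3 (AT1G54830), so it is as much a region of that gene. MBD7, on chromosome 5 and 2.17 kb long, had no region of any context in either table. Of 3749 genes within 10% of its length, 42.1% had no CG region in the ddb2-3 table and 39.2% none in the cen table.

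Among the end-processing enzymes, APE1L and ZDP stood far apart in the number of their regions. APE1L, an AP endonuclease gene of 3.04 kb on chromosome 3, had 4 CG regions in ddb2-3 and 5 in cen. Of 3225 genes within 10% of its length, 10.1% had at least 4 in the ddb2-3 table and 4.0% at least 5 in the cen table, and the median was 1 in both. In ddb2-3 these regions covered 23.0% of the gene, the largest share among the 10. The longest was a loss of 400 bp at 17934001 to 17934400, lower by 0.435 in ddb2-3 and by 0.420 in cen in the authors' deposited tables. Before it lay another loss, lower by 0.358 at 17933601 to 17933700 in ddb2-3 and by 0.548 at 17933501 to 17933700 in cen in the authors' deposited tables.

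Gains in APE1L were smaller than these losses. At 17933201 to 17933300 the authors' deposited tables gave a level higher by 0.128 in ddb2-3 and by 0.139 in cen. The authors' deposited table for cen alone had 17933801 to 17933900, higher by 0.232, between both losses. It also had 17931001 to 17931100, higher by 0.175, which lay 605 bp outside APE1L and within the neighbouring gene AT3G48420. The authors' deposited table for ddb2-3 alone had 17932801 to 17932900, lower by 0.158. APE1L thus had 1 higher and 3 lower regions in ddb2-3 and 3 higher and 2 lower in cen.

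ZDP, a DNA phosphatase gene of 4.59 kb on chromosome 3, had 1 CG region in ddb2-3 and none in cen. The authors' deposited table gave it at 5011101 to 5011200, 53.9% along the span, as lower by 0.178. Of 1376 genes within 10% of its length, 13.8% had no CG region in the ddb2-3 table and 11.6% none in the cen table. In LIG1, the DNA ligase gene of 5.28 kb on chromosome 1, a loss and a long gain, 800 bp apart, stood in both tables. The gain covered 2546201 to 2546700, higher by 0.457, in ddb2-3 and 2546201 to 2546500, higher by 0.495, in cen in the authors' deposited tables. The loss, at 2545301 to 2545400, was by 0.275 in ddb2-3 and by 0.260 in cen in the authors' deposited tables. The authors' deposited table for cen had a further loss at 2543101 to 2543200, by 0.231.

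By role, the 4 glycosylase genes had 9 higher and 6 lower CG regions in ddb2-3 and 13 higher and 9 lower in cen. The 3 targeting genes had 4 higher and 2 lower in ddb2-3 and 3 higher and 2 lower in cen. The 3 end-processing and ligation genes had 2 higher and 5 lower in ddb2-3 and 4 higher and 4 lower in cen. Over the nuclear genome 47.6% of CG regions were higher in ddb2-3 and 57.1% in cen. These groups are small, neighbouring regions are not independent, and no difference between roles was tested.

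At 16 windows with the same start and end in both tables, in 7 of the genes, the lines can be set against each other directly. If both tables used the same Col level there, Col cancels when the difference of ddb2-3 is taken from that of cen. In the authors' deposited tables, cen then lay above ddb2-3 by 0.190 in DML2 (3083901 to 3084000) and by 0.122 in DME (1314001 to 1314100), and ddb2-3 lay above cen by 0.137 in DME (1313201 to 1313400). At the other 13 windows the lines were within 0.1 of each other, from 0.0075 in IDM2 to 0.0518 in IDM1. A distance over 0.1 was thus found at 3 of these 16 windows, beside 20.4% of all 11190 nuclear CG windows of this kind. The median distance between the lines was 0.0183 at the 16 windows and 0.0317 at all of them. These windows were listed because each line differed from Col, and with a shared Col library their common departure from Col is not evidence from independent controls.

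**Figure D4:**
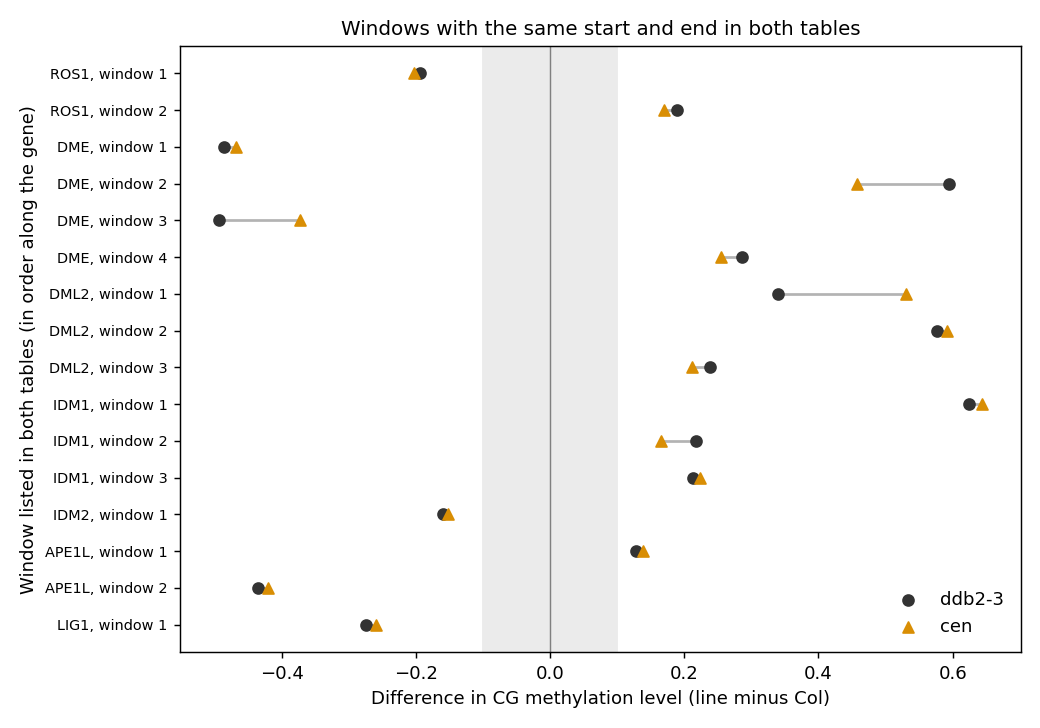
Difference in CG methylation level (line minus Col) in ddb2-3 (circles) and cen (triangles) at the 16 windows with the same start and end in both tables, 1 row per window in the order along each gene. The grey bar joins both lines and its length is their distance once Col is removed. The longest bars are at DML2 window 1 and at DME windows 2 and 3.

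Neighbouring CG regions in these genes often went opposite ways. Of pairs of neighbouring regions under 1 kb apart at the 10 genes, 7 of 12 in ddb2-3 and 10 of 17 in cen differed in direction, beside 59.7% and 58.3% of such pairs over the nuclear genome. Regions that touched each other stood at ROS1 in both tables, with 1 pair in ddb2-3 and 2 in cen, and at DME in cen. All 1135 touching pairs of the ddb2-3 table and all 1278 of the cen table went opposite ways, so touching windows of 1 direction had been joined in the deposited tables. Touching pairs could thus only be opposite, and they are included in the counts and shares of pairs under 1 kb apart. That part of the counts was fixed by the joining.

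Other genes of base excision repair and of ROS1 targeting, 13 in number, together held both higher and lower CG regions. Not every gene of this list had both, and OGG1 had none. They were ROS3, an RNA-binding protein, the repair genes XRCC1, ARP, FPG1, UNG and OGG1, the chromatin genes MBD9, PIE1, ARP6, SSRP1 and SPT16, and MET18 and AE7 of iron-sulfur cluster assembly. In ddb2-3, 11 of the 13 had a CG region, all but XRCC1 and OGG1, with 18 higher and 27 lower regions. In cen, 12 had one, all but OGG1, with 22 higher and 17 lower. Of all nuclear CG regions, 47.6% were higher in the ddb2-3 table and 57.1% in the cen table. Over all protein-coding genes the share with a CG region was 57.7% and 60.1%. That share is not matched for length, and several genes of the list are long. Among genes of 9000 to 9500 bp, the lengths of MBD9 and PIE1, it was 96.8% in each table. MBD9, a methyl-CpG-binding domain gene of 9.26 kb, had 4 higher and 7 lower in ddb2-3 and 3 of each in cen. PIE1, the ATPase of the complex that places the histone variant H2A.Z, had 3 higher and 1 lower in ddb2-3 and 4 higher and 3 lower in cen. Its widest gain was 0.676 in ddb2-3 and 0.659 in cen in the authors' deposited tables. SPT16, a histone chaperone gene, had the widest loss of the list, 0.775 in ddb2-3 and 0.536 in cen in the authors' deposited tables. The values of PIE1 and SPT16 were picked as extremes of the list. The share of nuclear CG regions as large is not given for them. Outside CG, the list held a CHG region at ARP, an AP endonuclease gene, where the authors' deposited table for ddb2-3 gave a level lower by 0.239, and no other.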

How the data were processed

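The submitters' processing notes name the genome TAIR10 and the tools Bowtie2 2.0, Bismark, Trim Galore, cutadapt and FastQC. Test, threshold and coverage minimum of the region calls were not given in the sources used here. In all, the authors deposited 6 tables (3 contexts, 2 comparisons) with a signed score per region, the difference in methylation level, on a grid of 100 bp. All listed scores exceeded 0.1 in absolute size and none exceeded 1.0.

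The sign was inferred. Of 818 CG regions with the same place and score in both tables (within 1.5e-06), 806 were positive and 12 negative. Both lines then have 1 level, most often taken to be none, so a positive score was read as Col above the line. For CHG such regions were 4 and 3, which does not decide, and for CHH 5 and 0, and both contexts were read as CG.

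Gene spans came from the RefSeq table of TAIR10.1, which differs by name from TAIR10, and its coordinates are not given. Midpoints of ddb2-3 CG regions fell in protein-coding genes at 78.4% in place and at 57.7% and 58.5% when moved by 5000 bp. All 10 genes were found by locus. The table gives ZDP and APE1L no symbol or synonym, and IDM2 only as a synonym. A region counted with at least 1 base in the gene or within 1 kb.

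The members and lists were chosen with earlier results of these data known. All 10 genes are named. Of 15 further genes listed, IDM3 and APE2 were left out because the table does not pair their loci with these symbols. On simulated data the counting matched a direct count at 500 of 500 genes checked. The tools were matplotlib 3.10.9, NumPy 2.4.6, pandas 2.3.3 and Python 3.11.15.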

Additional observations from a re-analysis of the deposited data

Results flagged for a closer look

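At ROS1, overlapping CG regions went opposite ways in the 2 comparisons. In the authors' deposited tables, chromosome 2, 15309301 to 15309600, stood at 0.288 (line minus Col) in ddb2-3, and 15309201 to 15309400 stood at -0.219 in cen. They share 15309301 to 15309400, and each is a value over its whole stretch, so the level of either line in the shared window is not known. The adjoining ddb2-3 region, 15309201 to 15309300, was lower, as was the cen region. The difference between the lines was not tested. The ddb2-3 line stands on 1 library, and the number of libraries of cen is not given.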

How the results depend on the processing

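Counts at the 10 genes were recomputed without flanks, with flanks of 0.5 and 2 kb, by region midpoint, with differences of at least 0.15 only, and with touching regions of 1 direction joined. The 6 CG results (regions, higher regions and genes with a region, in each table) stayed within 1.5 times their value under each of these. The joining could not change them, because touching regions of 1 direction had already been joined by the authors. With flanks of 2 kb, CHG regions in the ddb2-3 table went from 0 to 1 and CHH regions from 0 to 1 in each table, all near DML2. With differences of at least 0.15, the CHG count of cen fell from 1 to 0, because the ROS1 region is smaller than that. No paired analysis was possible because Col and ddb2-3 have 1 library each and the tables hold no value per library. The number of libraries of cen is not given. For these reasons no replicate could be left out. Read depth is unknown, so the precision of a difference in a window of 100 bp cannot be given.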
